A study of Mus musculus with 6 samples.

Results

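The genes described here are 10 genes of water channels, vasopressin receptors and urea transport: the water channels Aqp1, Aqp2, Aqp3, Aqp4, Aqp5, Aqp7 and Aqp11, the vasopressin receptors Avpr2 and Avpr1a, and the urea transporter gene Slc14a2. They were taken by symbol, and all 10 were found among the 23396 genes of the deposited table. Right kidneys were taken from males at 6 months of age and frozen at harvest, and their RNA was sequenced after removal of ribosomal RNA. The knockout group was 3 mice of the strain C57BL/6N-Far2tm2a(KOMP)Wtsi/2J, homozygous for a targeted allele of Far2, which encodes a fatty acyl-CoA reductase. The wild-type group was 3 C57BL/6N mice. Libraries carry the numbers 0, 1 and 2 within a group, and no number is tied to a named mouse.

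Vasopressin from the pituitary binds the V2 receptor, encoded by Avpr2, on principal cells of the collecting duct. The receptor acts through the stimulatory G protein and adenylyl cyclase to raise cAMP, and protein kinase A then drives vesicles holding aquaporin-2 into the apical membrane and increases Aqp2 transcription. Water leaves the cell through aquaporin-3 and aquaporin-4 on the basolateral side. Aquaporin-1 carries water in the proximal tubule and the descending thin limb, and the urea transporters encoded by Slc14a2 help to keep the inner medulla concentrated.

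Far2 itself did not set the groups apart. It had 40, 40 and 22 fragments in wild-type libraries 0, 1 and 2 (1.98, 1.90 and 1.43 CPM) and 28, 19 and 31 fragments in knockout libraries 0, 1 and 2 (1.59, 1.26 and 1.67 CPM). The groups overlapped, and the log2 fold change was −0.23 ± 0.24 (SE; edgeR's quasi-likelihood test, adjusted p = 0.781). Gene counts do not show which exons the fragments came from, so the genotype labels could not be checked from these values, and knockout and wild type below name the libraries as labelled.

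The libraries held from 15261362 to 20631158 fragments assigned to genes, and the 10 genes together took from 0.114% to 0.150% of them. Summed markers of the proximal tubule lay between 17167 and 20633 CPM (counts scaled to library size), those of the thick ascending limb between 5608 and 6614 CPM, and those of principal cells between 214.9 and 268.5 CPM, so the markers of the labelled tissue were present in every library. Wild-type library 0 stood apart in tubular injury markers: Havcr1, which encodes KIM-1, was at 21.5 CPM there and between 0.617 and 0.916 CPM in the other libraries. Wild-type library 1 had the highest sum of principal cell markers, 268.5 CPM, against 214.9 to 230.9 CPM elsewhere. Where leaving out either library turned the direction of one of the 10 genes, the value without it is given beside the result. In whole-kidney RNA, fewer cells of a type and less RNA per cell cannot be told apart.

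The order of the genes was read from the authors' FPKM, which is per transcript length and can be compared between genes. Aqp1 stood first, at 282.7 ± 27.7 FPKM (mean ± SD over the 6 libraries), 3.92 times the level of Aqp2 at 72.01 ± 12.9 FPKM. Aqp3 followed at 43.2 ± 5.46 FPKM. The ranges of these 3 genes did not overlap. Aqp11, a channel of intracellular membranes found in the proximal tubule, was at 26.4 ± 0.80 FPKM, above Aqp4 at 19.0 ± 3.67 FPKM in all 6 libraries, although their ranges touched (25.2 FPKM at the lowest for Aqp11, 25.6 FPKM at the highest for Aqp4). Aqp4 and Slc14a2, at 15.6 ± 3.83 FPKM, were not separated by their spread, and Aqp4 was above Slc14a2 in 4 of 6 libraries. Avpr2 was at 7.66 ± 0.85 FPKM and Aqp7, a glycerol and water channel of the straight proximal tubule and of fat, at 6.41 ± 0.44 FPKM. Their ranges overlapped, and Avpr2 was above Aqp7 in all 6 libraries. Avpr1a, the V1a receptor that signals through calcium, was at 3.79 ± 0.40 FPKM, and Aqp5, a channel of salivary gland and lung, was last at 0.080 ± 0.053 FPKM.

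**Figure D1:**
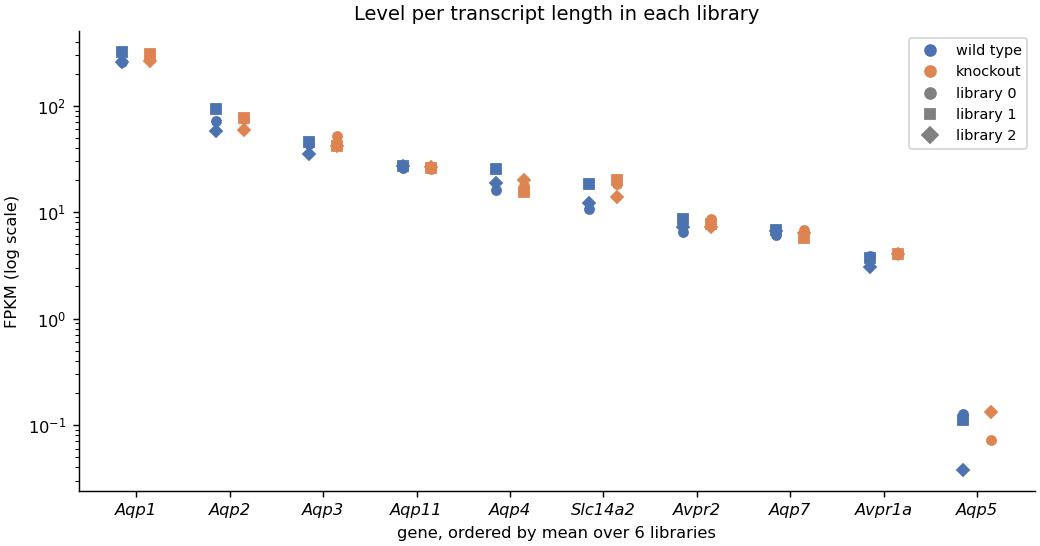
FPKM of each gene on a log axis, with genes ordered by their mean over 6 libraries; colours mark the groups and symbols the library number. Aqp1 lies above 256 FPKM in every library and Aqp5 at 0.133 FPKM or less; Aqp5 in knockout library 1, at 0 FPKM, cannot be drawn on this axis.

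Neighbouring aquaporin genes differed widely in level. Aqp2 lies on the plus strand of chromosome 15 (GRCm38, GENCODE M21) from 99579055 to 99584547, with 1 annotated transcript of 4 exons, and Aqp5 starts 6.24 kb after its end, on the same strand. Aqp6, a channel of intercalated cell vesicles, starts 6.57 kb after Aqp5. In this cluster Aqp2 averaged 72.01 FPKM and Aqp6 2.70 FPKM, while Aqp5 was near the limit of detection. On chromosome 4, Aqp3 (41092722 to 41098183, minus strand) and Aqp7 (41033074 to 41048139, minus strand) lie 44.6 kb apart, at 43.2 and 6.41 FPKM. Aqp1 lies on chromosome 6 from 55336432 to 55348555 (plus strand), Aqp11 on chromosome 7 from 97724006 to 97738289 (minus strand), and Avpr1a on chromosome 10 from 122448499 to 122453452 (plus strand). Avpr2 lies on chromosome X from 73892102 to 73895502 (plus strand) and shares exon bases with Arhgap4 on the other strand. The libraries were stranded, but the strand setting of the counting is not given in the sources used here, so the Avpr2 counts are less certain than the rest.

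The stretch just before the transcription start is shown for Aqp2 and Aqp3, the main apical and basolateral channels of the principal cell, and for Avpr1a, the gene whose groups did not overlap. Each is the 250 bases before the RefSeq start on GRCm38.p6, 5′ to 3′ on the gene's own strand, and 8 of the 10 genes had an entry. Capitals mark letters that match any of 4 motifs on either strand: TGACG (the core of the cAMP response element), AGATAA (the site of GATA factors), TATAA (the TATA box) and TGGAAA (the core bound by NFAT5, the tonicity factor).
Aqp2, chr15:99578806-99579055, plus strand: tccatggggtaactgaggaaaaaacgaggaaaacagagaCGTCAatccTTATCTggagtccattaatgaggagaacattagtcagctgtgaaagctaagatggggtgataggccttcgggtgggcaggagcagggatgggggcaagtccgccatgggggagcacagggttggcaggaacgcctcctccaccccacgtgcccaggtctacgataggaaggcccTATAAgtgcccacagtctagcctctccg
Aqp3, chr4:41098184-41098433, minus strand: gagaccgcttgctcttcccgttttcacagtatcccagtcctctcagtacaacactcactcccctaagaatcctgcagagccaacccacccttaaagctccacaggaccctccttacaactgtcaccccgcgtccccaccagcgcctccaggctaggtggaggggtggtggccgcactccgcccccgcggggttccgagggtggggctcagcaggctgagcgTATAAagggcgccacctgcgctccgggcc
Avpr1a, chr10:122448249-122448498, plus strand: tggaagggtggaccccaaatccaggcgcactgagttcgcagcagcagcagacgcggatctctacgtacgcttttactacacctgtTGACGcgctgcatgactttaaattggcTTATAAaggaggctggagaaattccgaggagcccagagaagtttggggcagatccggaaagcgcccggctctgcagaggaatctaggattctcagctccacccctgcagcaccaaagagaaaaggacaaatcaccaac

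In Aqp2 the match to TGACG lies on the minus strand at 211 bases before the start, the match to AGATAA on the minus strand at 202 bases and TATAA at 28 bases. Aqp3 holds TATAA at 29 bases before the start and none of the other motifs in this window. Avpr1a holds TGACG at 165 bases and TATAA on both strands at 137 and 138 bases, where the matches overlap. Of 32851 promoter windows of the same length, 17.8% hold TGACG, 9.99% AGATAA, 22.8% TATAA and 18.6% TGGAAA, so each motif is common and a match is a description of the letters alone.

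The comparison of groups asks how kidneys that are homozygous for the Far2 allele differ from wild-type kidneys in these genes, with the genotypes taken from the labels, since Far2 counts overlapped between the groups. The 9 genes with enough fragments were tested with edgeR (quasi-likelihood), with p adjusted by Benjamini and Hochberg's method over 14354 genes. None of the 9 passed, and 0.0% of all genes did. None of the 9 had an unadjusted p under 0.05, beside 8.31% of all genes (3.17% higher and 5.14% lower in knockout), and DESeq2, which called 0.0975% of all genes, called none of them. The mean was higher in knockout for 5 of the 9 and lower for 4, where 48.3% of all genes were higher. The median log2 fold change of the 9 was 0.025, beside −0.0066 for all genes tested. Avpr1a alone had groups that did not overlap, with knockout higher, as 7.12% of all genes did; none of the 9 was without overlap and lower, beside 6.96% of all genes.

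**Figure D2:**
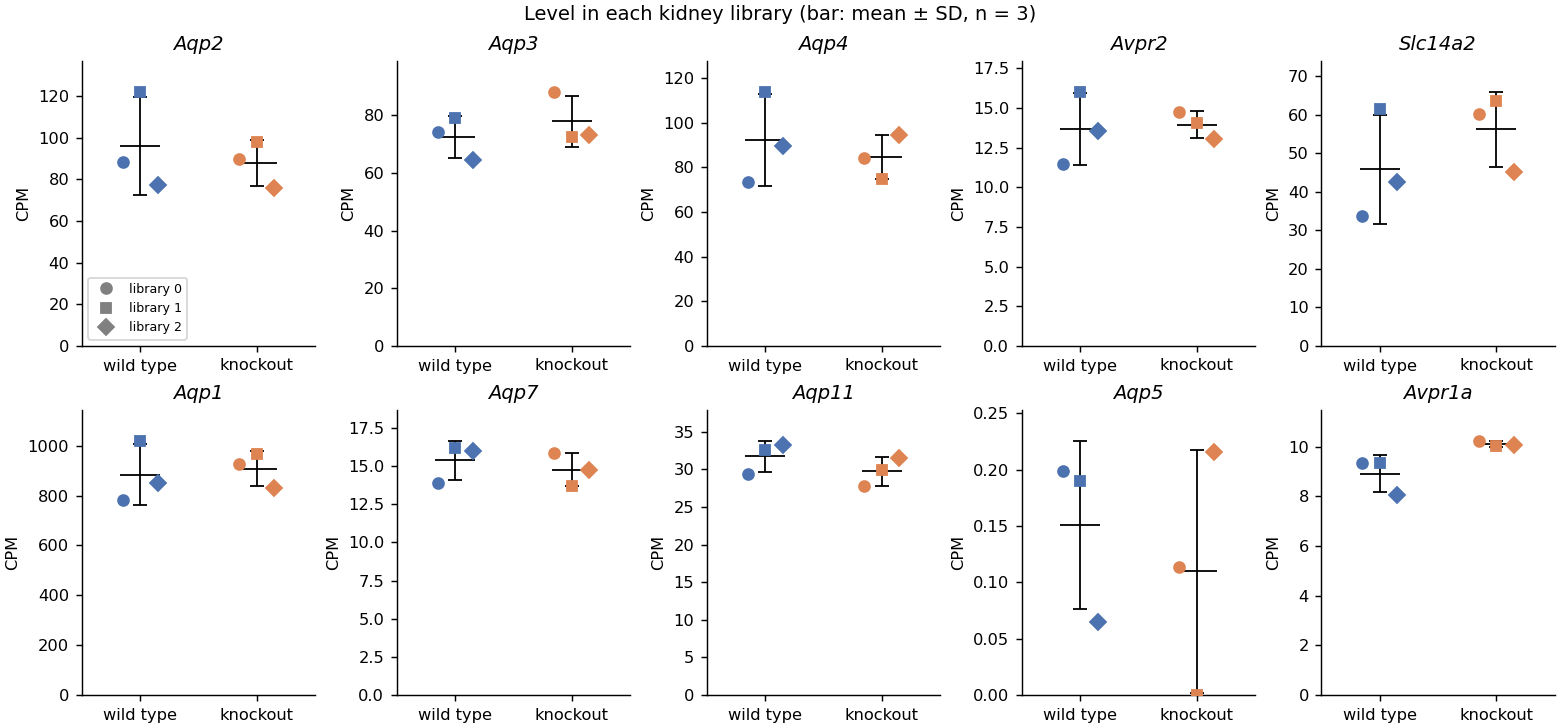
CPM in each library for the 10 genes, each on its own axis from 0; symbols mark the library number and bars the mean ± SD of 3 libraries. The groups overlap for every gene except Avpr1a, and wild-type library 1 (square) is the highest wild-type point for Aqp1, Aqp2, Aqp3, Aqp4, Aqp7, Avpr2, Avpr1a and Slc14a2.

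Aqp2, the vasopressin-regulated channel, was at 88.5, 122 and 77.1 CPM in wild-type libraries 0, 1 and 2 and at 90.0, 98.0 and 76.0 CPM in knockout libraries 0, 1 and 2. The groups overlapped fully apart from the high value of wild-type library 1 and the low value of knockout library 2. Wild type averaged 96.0 ± 23.4 CPM and knockout 88.0 ± 11.1 CPM (SD, n = 3). Taken as knockout over wild type, its log2 fold change was −0.13 ± 0.16 (standard error, SE; edgeR's quasi-likelihood test, adjusted p = 0.817). Its 95% confidence interval places the knockout level between 0.718 and 1.17 times the wild-type level. Without wild-type library 1 the log2 fold change was 0.089, in the other direction.

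Avpr2, the receptor upstream of Aqp2, was at 11.5, 16.0 and 13.6 CPM in wild type and at 14.7, 14.0 and 13.05 CPM in knockout. The knockout libraries lay inside the wild-type range, and the log2 fold change was 0.025 ± 0.13 (SE; edgeR's quasi-likelihood test, adjusted p = 0.966), which allows a knockout level from 0.835 to 1.24 times that of wild type. The direction turned without wild-type library 0 (−0.092) or knockout library 0 (−0.018). Of the basolateral channels, Aqp3 was at 74.2, 79.0 and 64.7 CPM in wild type and at 88.3, 72.5 and 73.1 CPM in knockout. Knockout library 0 was the highest of the 6 and the others overlapped, for a log2 fold change of 0.10 ± 0.099 (SE; edgeR's quasi-likelihood test, adjusted p = 0.766), or 0.920 to 1.25 times, and 0.0031 without knockout library 0.

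Aqp4, which adds a basolateral exit for water in the inner medulla, was at 73.4, 114 and 89.6 CPM in wild type and at 84.3, 74.8 and 94.6 CPM in knockout. Wild-type library 1 was again the highest, and the knockout libraries lay inside the wild-type range. The log2 fold change was −0.13 ± 0.15 (SE; edgeR's quasi-likelihood test, adjusted p = 0.807), or 0.731 to 1.15 times, and it was 0.060 without wild-type library 1. Relative to the mean log2 level of 9 principal cell markers in the same library, Aqp2 stood 2.45 ± 0.20 log2 units higher in wild type and 2.38 ± 0.15 in knockout, Aqp3 2.07 ± 0.18 and 2.21 ± 0.12, Aqp4 2.39 ± 0.12 and 2.33 ± 0.21, and Avpr2 −0.34 ± 0.069 and −0.26 ± 0.031 (SD, n = 3). The groups overlapped for all 4 differences, which were not tested. Of the 9 marker genes themselves, 2 had a higher and 7 a lower mean in knockout, and their median log2 fold change was −0.069, or 0.090 without wild-type library 1. The smallest p in that list belonged to the transcription factor gene Gata3, at −0.28 ± 0.17 (SE), and to Ptges, a prostaglandin E synthase, at −0.18 ± 0.15.

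Slc14a2 had the largest log2 fold change of the 9 and the widest spread. Its gene encodes the UT-A urea transporters of the inner medullary collecting duct and the descending thin limb from alternative transcripts, which gene counts do not separate. It was at 33.7, 61.4 and 42.6 CPM in wild type and at 60.1, 63.4 and 45.1 CPM in knockout. Wild-type library 1 matched the higher knockout libraries, and wild-type libraries 0 and 2 lay below every knockout library. Wild type averaged 45.9 ± 14.1 CPM and knockout 56.2 ± 9.75 CPM (SD, n = 3), a log2 fold change of 0.29 ± 0.20 (SE; edgeR's quasi-likelihood test, adjusted p = 0.681). The interval runs from 0.896 to 1.67 times. The log2 fold change was 0.11 without wild-type library 0, the library with high injury markers, and 0.57 without wild-type library 1. In the authors' deposited table the log2 fold change of Slc14a2 was 0.34, with p = 0.0074 and q = 0.319. That was the smallest p of these genes there, and the next was 0.124, for Aqp4. The unadjusted p of Slc14a2 in edgeR's quasi-likelihood test was 0.179.

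Slc14a1, which lies 4.03 kb from Slc14a2 on chromosome 18 and encodes the UT-B urea transporter of descending vasa recta and red cells, had values in the other direction. It was at 4.76, 5.69 and 4.67 CPM in wild type and at 3.76, 4.52 and 3.61 CPM in knockout, without overlap. Its log2 fold change was −0.36 ± 0.16 (SE; edgeR's quasi-likelihood test, adjusted p = 0.599). Summed red cell markers, which share a source with Slc14a1, ranged from 132.9 to 204 CPM in wild type and from 154.7 to 213.2 CPM in knockout, and their part in this difference was not tested. Within a library the ratio of Slc14a2 to Slc14a1 was 7.07, 10.8 and 9.11 in wild type and 16.0, 14.0 and 12.5 in knockout. This ratio was chosen after its values were seen and was not tested.

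Aqp1, the most abundant of the water channels, was at 781.1, 1021 and 851.8 CPM in wild type and at 928.3, 967 and 830.2 CPM in knockout. All knockout libraries lay inside the wild-type range. The log2 fold change was 0.038 ± 0.11 (SE; edgeR's quasi-likelihood test, adjusted p = 0.930), or 0.869 to 1.21 times, and its direction turned without wild-type library 0 (−0.043) or knockout library 1 (−0.0099). Proximal tubule markers had a median log2 fold change of 0.080 (8 of 10 higher in the mean, 0 called), or 0.031 without wild-type library 1. Endothelial markers, from cells that also hold Aqp1, had one of −0.047 (4 of 8 higher, 0 called), or 0.016 without that library.

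Aqp11 was at 29.4, 32.6 and 33.2 CPM in wild type and at 27.7, 30.0 and 31.5 CPM in knockout, with overlap between groups. Its log2 fold change was −0.094 ± 0.086 (SE; edgeR's quasi-likelihood test, adjusted p = 0.752). It varied least of the 9, with a coefficient of variation of 6.80% over the 6 libraries. Aqp7 was at 13.9, 16.2 and 16.0 CPM in wild type and at 15.9, 13.7 and 14.7 CPM in knockout, a log2 fold change of −0.056 ± 0.10 (SE; edgeR's quasi-likelihood test, adjusted p = 0.877). Aqp7 is also a gene of fat cells, and all 5 tested adipocyte markers had a higher mean in knockout (median log2 fold change 1.03, 0 called). That median was 0.25 without knockout library 2 and 0.59 without wild-type library 1. The 7 adipocyte markers summed to between 28.8 and 38.2 CPM in wild type and between 40.9 and 63.7 CPM in knockout, mostly from Fabp4, which endothelial cells share. The part of fat in the Aqp7 values was not tested.

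Avpr1a, which in the kidney is found in intercalated cells and vessels, was at 9.33, 9.34 and 8.05 CPM in wild type and at 10.2, 10.04 and 10.1 CPM in knockout. Every knockout library was above every wild-type library, by a small step. Wild type averaged 8.91 ± 0.75 CPM and knockout 10.1 ± 0.11 CPM (SD, n = 3). These values rest on 124 to 197 fragments per library in wild type and 151 to 187 in knockout. Counting error was not separated from the step, and the small knockout SD does not show how well the level is known. The log2 fold change of Avpr1a was 0.18 ± 0.11 (SE; edgeR's quasi-likelihood test, adjusted p = 0.634), or 0.961 to 1.34 times. It was 0.12 without wild-type library 2, the lowest. It stayed above 0 with any library left out, which follows from groups that do not overlap and adds nothing to that. Intercalated cell markers had a median log2 fold change of −0.078 (3 of 8 higher in the mean, 0 called), which became 0.036 when wild-type library 1 was left out and −0.0065 when knockout library 2 was, so the list gives no stable direction. Foxi1, the intercalated cell transcription factor, had the smallest p in the list, at −0.48 ± 0.15 (SE; edgeR's quasi-likelihood test, adjusted p = 0.599). Its groups did not overlap, with knockout lower, as for 6.96% of all genes. Aqp6, another intercalated cell gene, was at 4.76, 6.88 and 6.68 CPM in wild type and at 5.12, 5.12 and 4.74 CPM in knockout, a log2 fold change of −0.29 ± 0.17 (SE).

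Aqp5 did not reach the filter on low counts and was not tested. It had 4, 4 and 1 fragments in wild-type libraries 0, 1 and 2 and 2, 0 and 4 fragments in knockout libraries 0, 1 and 2. The 9 fragments of wild type have an exact 95% Poisson interval of 4.12 to 17.1, and the 6 of knockout one of 2.2 to 13.1. The intervals overlap, so these counts do not set the groups apart. The 0 of knockout library 1 allows a level of up to 0.197 CPM (3 counts, over the library size without TMM scaling). These intervals cover counting error only. Of the other genes of the family, Aqp12 and the V1b receptor gene Avpr1b had 0 fragments in all 6 libraries. Aqp9 had 1 to 4 fragments in each library, and the oxytocin receptor gene Oxtr had 1 to 8. Aqp8 was tested and lay between 0.584 and 1.39 CPM in wild type and between 1.02 and 2.26 CPM in knockout.

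**Figure D3:**
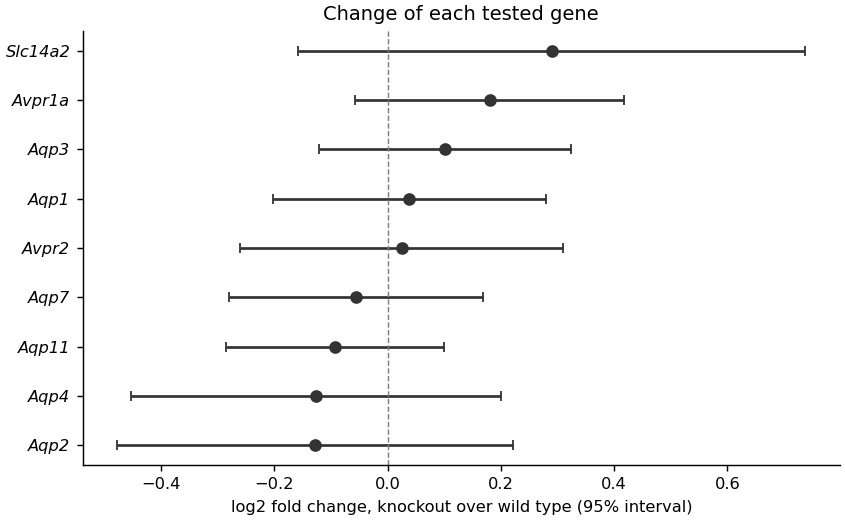
Log2 fold change, knockout relative to wild type, of the 9 tested genes, with 95% confidence intervals from edgeR's quasi-likelihood fit. Every interval crosses 0, and the estimates run from −0.13 for Aqp2 to 0.29 for Slc14a2.

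Variation between libraries was not even over the genes. The values pool both groups and include counting error, which weighs more on genes with few fragments. Over the 6 libraries the coefficient of variation of CPM was 24.0% for Slc14a2, 18.5% for Aqp2 and 16.9% for Aqp4, against 11.2% for Avpr2, 10.4% for Aqp3, 10.1% for Aqp1, 8.61% for Avpr1a, 7.45% for Aqp7 and 6.80% for Aqp11. The most alike pair was Aqp1 and Avpr2, with a root mean square difference of 0.055 on the log2 CPM scale after each gene was centred on its own mean over 6 libraries. That was the smallest of 36 differences. Avpr2 had 209 to 338 fragments per library, and counting error was not separated from the likeness. The least alike pair was Aqp11 and Slc14a2, at 0.36. This measure grows with the spread of each gene, and these genes had the lowest and the highest coefficient of variation. Outside the family, the 5 genes closest to Aqp2 were Ptgis, Irs3, Als2cr12, Tmem17 and Ggnbp1, with differences of 0.041 to 0.070 among 3962 genes whose SD was at least 0.8 times that of Aqp2. All 5 had their highest value in wild-type library 1, as Aqp2 did, which follows from choosing them by likeness to Aqp2. Levels were low for Irs3 (1.24 to 1.94 CPM), Als2cr12 (1.10 to 1.99 CPM) and Tmem17 (1.51 to 2.47 CPM). Within-library ratios between the 9 genes did not set the groups apart more often than other pairs: 2 of 36 ratios did not overlap between groups, 5.56%, beside 13.5% of all pairs of tested genes. They were the ratio of Aqp2 to Slc14a2, at 2.63, 1.99 and 1.81 in wild type and 1.5, 1.55 and 1.68 in knockout, and that of Aqp11 to Avpr1a, at 3.15, 3.49 and 4.13 in wild type and 2.71, 2.99 and 3.12 in knockout.

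Around these genes, 6 lists of vasopressin signalling, channel traffic, transcription factors and solute handling held 69 tested genes. None passed edgeR's quasi-likelihood test after adjustment over all genes or DESeq2, and 6 of the 69, 8.70%, had an unadjusted p under 0.05, beside 8.31% of all genes. The groups did not overlap for 9 of the 69, 13.04%, beside 14.1% of all genes. Of the 6, Gpcpd1 had the higher mean in knockout and Ptger4, Ptger1, Msn, Mylk and Elf3 the lower.

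No gene of the signalling chain from G protein to kinase passed the test. Of 19 cAMP pathway genes, 6 were higher and 13 lower in the mean of knockout, with a median log2 fold change of −0.046 (−0.015 without wild-type library 1), and 0 had an unadjusted p under 0.05. The lowest and highest values were −0.33 ± 0.22 (SE) for the adenylyl cyclase gene Adcy5, an interval of 0.569 to 1.11 times, and 0.39 ± 0.27 for Prkar2b, a regulatory subunit of protein kinase A, an interval of 0.867 to 1.99 times. Gnas, the stimulatory G protein subunit, stood at 324.2 ± 15.1 CPM for wild type and 319.3 ± 4.81 CPM for knockout (SD, n = 3). Adcy6, the main adenylyl cyclase of the collecting duct response, stood at 92.0 ± 15.7 CPM for wild type and 88.2 ± 10.4 CPM for knockout. The smallest p in the list belonged to Arrb2, which encodes beta-arrestin 2, at a log2 fold change of −0.28 ± 0.14 (SE), and to Pde1a, a phosphodiesterase, with 0.11 ± 0.066. Wild-type library 0 was the highest for Arrb2, at 9.23 CPM.

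Prostaglandin E2 opposes vasopressin in the collecting duct through the EP1 and EP3 receptors, while the EP4 receptor raises cAMP. Ptger4, which encodes EP4, was at 4.66, 4.60 and 3.96 CPM in wild type and at 2.79, 2.53 and 2.91 CPM in knockout. The groups were well apart, and the log2 fold change was −0.68 ± 0.16 (SE; edgeR's quasi-likelihood test, adjusted p = 0.599). Ptger1, which encodes EP1, was at 12.1, 13.8 and 10.5 CPM in wild type and at 10.6, 9.77 and 8.95 CPM in knockout, a log2 fold change of −0.32 ± 0.12 (SE; adjusted p = 0.599). Ptger3, for EP3, stood at 0.090 ± 0.083. EP4 is also made by macrophages, and all 7 macrophage markers had a lower mean in knockout (median −0.30, 0 called). Without wild-type library 0 that median was 0.16. Their summed level was 228.2 CPM in wild-type library 0 and between 99.8 and 133.3 CPM in the other 5. Their part in the Ptger4 values was not tested. Of the 9 tested genes of the list, 5 had a higher and 4 a lower mean in knockout. The groups did not overlap for 1 of the higher and 1 of the lower, beside 7.12% and 6.96% of all genes.

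**Figure D4:**
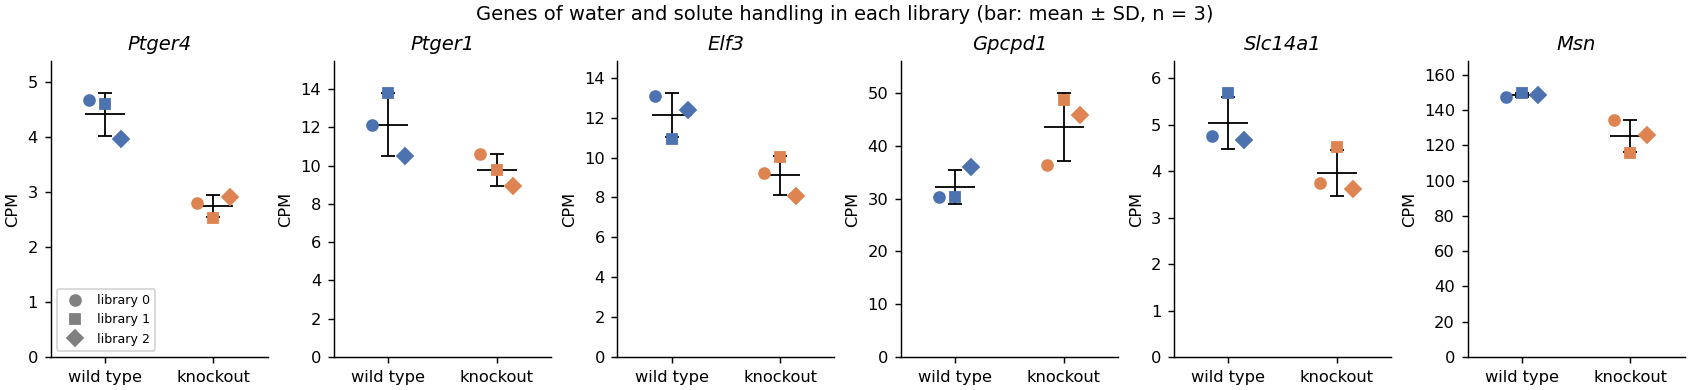
CPM in each library for 6 genes of the surrounding lists, each on its own axis from 0, with bars for the mean ± SD of 3 libraries. The genes drawn are picks with the smallest p of their lists. The groups do not overlap for Ptger4, Elf3, Gpcpd1, Slc14a1 and Msn, none of which passed the adjusted test. Over the 69 tested genes of these lists the groups did not overlap for 13.04%, beside 14.1% of all genes.

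Of the 20 genes of aquaporin-2 traffic and turnover, 12 were higher and 8 lower in the mean of knockout, with a median log2 fold change of 0.020 (−0.00068 without knockout library 0). Msn, which encodes moesin, a linker of membrane and actin, was at 147.5, 149.8 and 148.7 CPM in wild type and at 134.2, 115.8 and 125.7 CPM in knockout. For Msn the log2 fold change was −0.25 ± 0.068 (SE; edgeR's quasi-likelihood test, adjusted p = 0.599). Mylk, for myosin light chain kinase, stood at −0.20 ± 0.083. In this list the groups did not overlap for 2 genes higher and 2 genes lower in knockout, beside 7.12% and 6.96% of all genes. The motor gene Myo5b, which moves recycling vesicles, stood at 0.0013 ± 0.068.

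Among 9 transcription factors of the collecting duct, 8 were lower and 1 higher in the mean of knockout, with a median log2 fold change of −0.18, and 0 were called. Elf3, an epithelial ETS factor, was at 13.1, 10.9 and 12.4 CPM in wild type and at 9.22, 10.04 and 8.09 CPM in knockout. The groups did not overlap, and the log2 fold change was −0.41 ± 0.12 (SE; edgeR's quasi-likelihood test, adjusted p = 0.599). The related factor Ehf stood at −0.18 ± 0.093, and Gata3 at −0.28 ± 0.17. Nfat5, the tonicity factor, was at 89.3, 89.9 and 103 CPM in wild type and at 83.4, 74.2 and 93.5 CPM in knockout, with overlap. Without wild-type library 1 the median of the list was −0.045.

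The urea and osmolyte list, which holds genes that NFAT5 is known to drive, was split, with 4 of 10 higher and 6 lower in the mean and a median log2 fold change of −0.023, which was 0.065 without wild-type library 1. Gpcpd1, which breaks down the osmolyte glycerophosphocholine, was at 30.3, 30.4 and 35.9 CPM in wild type and at 36.4, 48.7 and 45.9 CPM in knockout. The groups came within 1 CPM of each other without overlapping, and the log2 fold change was 0.44 ± 0.12 (SE; edgeR's quasi-likelihood test, adjusted p = 0.599). The myo-inositol transporter Slc5a3 stood at 0.044 ± 0.077 and the taurine transporter Slc6a6 at −0.036 ± 0.17. Slc6a6, like Aqp2, was highest in wild-type library 1, at 564.7 CPM against 367.4 to 530.5 CPM in the others.

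**Figure D5:**
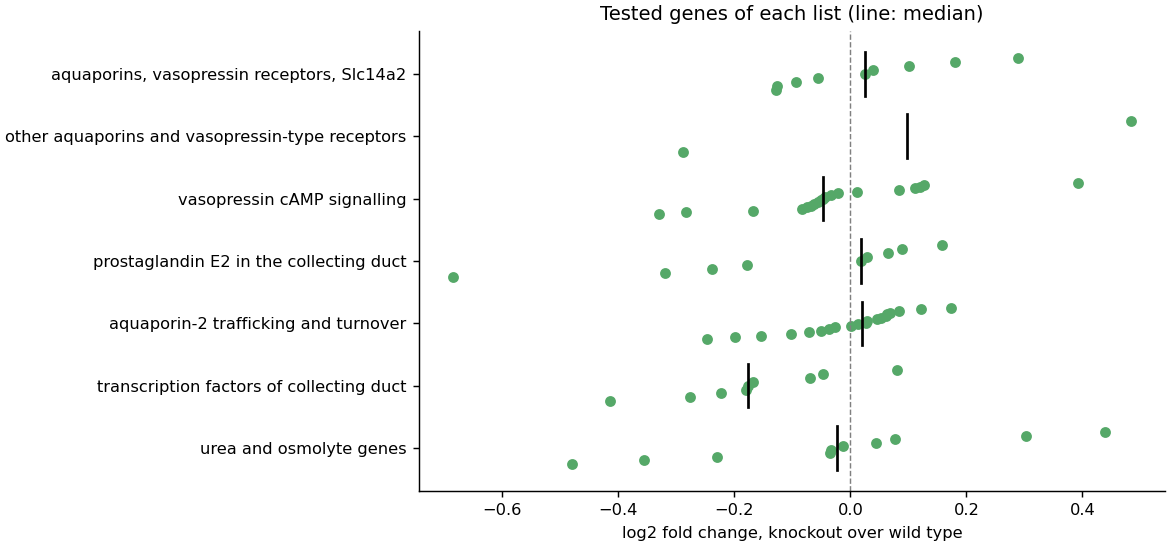
Log2 fold changes, knockout relative to wild type, of each tested gene (points) of the 10-gene family and of the 6 surrounding lists, with the median as a line. The medians run from −0.18 for the transcription factors to 0.098 for the other aquaporins and receptors, a list of 2 tested genes whose median was −0.10 without knockout library 1.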

How the data were processed

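RNA-seq of 6 kidneys was used as deposited. The submitters' processing notes list Cufflinks 2.2.1 and Cuffdiff, TopHat2 2.0.13, Bowtie2 2.2.3, cutadapt 1.2.1 and SAMtools 1.2, and the mouse build mm10. How multiply aligned fragments were counted is not given there. Per the file headers, the deposited table holds for each gene and library an estimated count (1.12% of values were not whole, by exact match) and an FPKM scaled between libraries. Its rows name the group and a library number, not the mouse. A second deposited table by the authors gives a log2 fold change, a p-value and a q-value per gene.

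After rounding, genes were filtered with filterByExpr and libraries scaled by TMM. The 2 groups were compared two-sided, without covariates, by the quasi-likelihood F test of edgeR 4.0.16 under R 4.3.3, and a gene was called at an adjusted p (Benjamini-Hochberg, all genes) under 0.05. CPM used TMM-scaled library sizes; log2 CPM had a prior count of 2. The libraries held 15261362 to 20631158 fragments, so counting error is small for abundant genes and large for Aqp5. The labels call the samples biological replicates. The fit was also run on simulated counts with known changes, drawn with the mean levels and fitted dispersions of these libraries.

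The genes and lists were chosen with earlier results of these data known. The text names all 10 genes, the 2 members with the smallest p of each of the 6 pathway lists, where none was called, and the 5 genes most like Aqp2 in a likeness measure; of the genes the same rule picks from the 12 marker lists, most are given only within list values; other genes were chosen for their role or after their values were seen. Alternatives changed the scaling (RLE, upper quartile), the filter (none, or at least 1 CPM in 3 libraries), the dispersion (robust), the threshold (0.01, 0.10) or the tool. The tools were DESeq2 1.42.0 and limma 3.58.1, the latter with voom and on log2 FPKM with pseudocounts of 1 and 0.1. Each library was also left out in turn. A deposited table of group means was left out because it holds no single libraries. Summaries were made in Python 3.11.15.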

Additional observations from a re-analysis of the deposited data

How the results depend on the processing

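The count of genes called over all genes was 0 and became 1 without a filter, with robust dispersion or at a threshold of 0.10, and 14 with DESeq2; with 1 library left out it ran from 0 to 1. None of the 9 tested genes of the family was called under any of the 17 alternatives run for that count. Of 135 refitted log2 fold changes of these genes, 129 kept direction and side of the threshold and 6 turned, all with a library left out. With a library left out the value ran from −0.043 to 0.16 for Aqp1, from −0.26 to 0.089 for Aqp2, from −0.27 to 0.060 for Aqp4, from −0.092 to 0.16 for Avpr2, from 0.0031 to 0.17 for Aqp3 and from 0.11 to 0.57 for Slc14a2. In 2 of the 6 the turn came without wild-type library 1 (0.089 for Aqp2 and 0.060 for Aqp4), in 2 without wild-type library 0 (−0.043 for Aqp1 and −0.092 for Avpr2), and in the others without knockout library 1 (−0.0099 for Aqp1) or knockout library 0 (−0.018 for Avpr2); the cause was not tested. Upper-quartile scaling moved the median of all genes by −0.016 and RLE by 0.0045 on the log2 scale. Of 270 refitted list medians, 14 moved by more than the pooled SD of the list's level between libraries of a group, among them that of tubular injury markers, 0.11 without wild-type library 0. That tolerance is wide: 29 of the 270, in 12 of the 18 lists, had the other sign, 21 of them with a library left out, so most list medians give no stable direction. No paired analysis was possible because the labels give the samples no replicate numbers and the library numbers match no sample. Aqp5 is limited by depth.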
